A study of Rattus norvegicus with 6 samples.

Results

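AP-1 and immediate early genes were measured by RNA-seq in C6 cells, an established rat glioma line, with and without overexpression of Aqp1, a water channel of the plasma membrane. The genes were taken by symbol from a list of 10: the Fos family members Fos, Fosl1 and Fosl2, the Jun family members Jun, Junb and Jund, and Atf3, Egr1, Ier2 and Arc. The count tables held 9 of these 10 among their 12121 genes. Ier2 had no row in the tables and was not analysed here. The comparison was between 3 libraries of C6 cells carrying an Aqp1 expression vector with a CMV promoter (C6-AQP1) and 3 libraries of C6 cells without overexpression (C6 control). The control line of the study's other assays carried the vector without Aqp1 (C6-Pcdh), while the sequenced controls are named only C6. Whether these too carried it, whether C6-AQP1 was a single clone, and how long before harvest the serum-containing medium was last changed are not given in the sources used here. No label states that replicate libraries derive from independent cultures, so p-values cover only how far these libraries vary, and that variation may be technical.

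AP-1 is a family of dimeric transcription factors. A Jun protein pairs with another Jun protein, with a Fos protein or with a related protein such as ATF3, through a leucine zipper, and the pair binds DNA through an adjoining basic region. The composition of the dimer sets its strength, and Fos proteins cannot form stable homodimers, so that they depend on a Jun partner. Immediate early genes are transcribed within minutes of a stimulus such as serum, without new protein synthesis, and many of their mRNAs are short-lived. In glia and glioma cells they are known to respond to growth factors, serum, calcium and stress.

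Most of these genes were higher in C6-AQP1 cells. Of the 9 measured members, 7 rose, beside 40.8% of all genes tested, 1 fell, beside 40.7%, and 1 did not pass the test (edgeR's quasi-likelihood test, with p adjusted over all 12121 genes and a threshold of 0.05). Counted by the threshold of the study's methods for a differentially expressed gene (DEG), which adds a fold change above 2, 5 of the 9 were DEGs with higher values, namely Arc, Jun, Atf3, Fos and Egr1, beside 9.74% of all genes. None was a DEG with lower values, beside 4.35% of all genes; the lowest log2 fold change was -0.64, and DESeq2 and limma-voom also gave 0. The groups did not overlap for 8 of the 9, beside 82.5% of all genes. The median log2 fold change was 1.01 over the members and 0.0010 over all genes. The members were chosen with earlier results of these data known, so their contrast with all genes may not be independent of that choice. The members together took 0.592% ± 0.0275 of the counts in C6-AQP1 libraries and 0.247% ± 0.00495 in C6 control libraries (SD, n = 3). In these bulk samples, fewer cells that express a gene and less of its RNA per cell cannot be told apart. Values below are normalized CPM, counts divided by the TMM-scaled library size, which are not divided by gene length and therefore compare libraries within a gene.

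**Figure D1:**
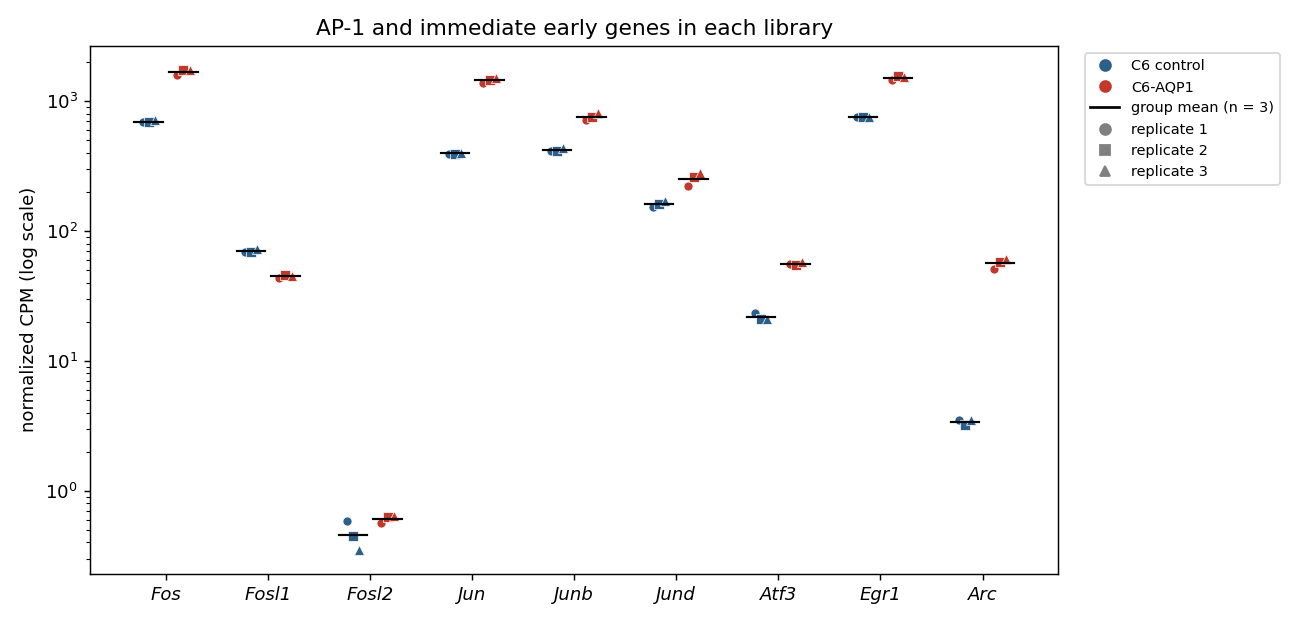
Normalized CPM on a log scale of the 9 measured members. Each point is a library (blue C6 control, red C6-AQP1, the marker giving the replicate), and the black bars are group means (n = 3). The groups lie apart for every member except Fosl2, and Fosl1 is the member whose C6-AQP1 libraries lie below the controls.

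Totals of expected counts lay between 19054244 and 41565596 in C6-AQP1 and between 22728100 and 52725870 in C6 control libraries, with replicate 1 the shallowest of each group. Aqp1 (ENSRNOG00000011648), the gene that was introduced, had 1052, 1064 and 1057 CPM in C6-AQP1 replicates 1 to 3 and 347, 352 and 349 CPM in C6 control replicates 1 to 3, so each library matched its label. All 6 listed markers of glioma and astrocyte lineage (Vim, Nes, S100b, Gfap, Slc1a3 and Cspg4) had counts and rose, beside 40.8% of all genes. Their summed level was 6438 to 6690 CPM in C6-AQP1 and 4673 to 4806 CPM in C6 control libraries. For Cspg4 the groups overlapped and the log2 fold change was 0.07 (edgeR adjusted p = 0.0195). Gfap, the astrocyte filament protein, had 167 ± 6.72 CPM against 14.0 ± 0.0652 CPM (SD, n = 3), a log2 difference of 3.57. None of the 6 markers of microglia and macrophages or the 5 of endothelial cells was among the genes of the tables. The deposited genes had been filtered on expression level, so such absence does not show that a gene had no reads. Of 5 neuronal markers 4 were listed (Rbfox3 was not), with a summed level of 268 to 274 CPM in C6-AQP1 and 85.1 to 88.4 CPM in C6 control libraries, mostly from Map2. Of 4 oligodendrocyte markers 3 were listed (Mag was not), with 619 to 628 CPM against 129 to 133 CPM. These moved with the same group as the early genes, and their part in the results below was not tested.

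The promoters of the members that passed the test and have an entry in the sequence table used here, Egr1, Jund, Junb and Fosl1, are shown because 3 of them rose and 1 fell. Each is the window from 250 bases before to 50 bases after the gene start in RefSeq, read 5′ to 3′ on the strand of the gene. Entries were found for 6 of the 10 listed genes, but not for Fos, Jun, Atf3 and Arc, whose promoters were therefore not examined. Capitals mark matches on either strand to the cAMP response element (CRE, TGACGTCA), the AP-1 site (TRE), the EGR site (GCGNGGGCG), the TATA box (TATAAA) or the CArG box, the site of serum response factor. The AP-1 site was searched in the broad form TGANTCA, where N is any base. No matches overlapped one another. The coordinates are those of GRCr8: chr18:26736828-26737127 for Egr1 (plus strand), chr16:18769722-18770021 for Jund (minus strand), chr19:40080876-40081175 for Junb (plus strand) and chr1:212183635-212183934 for Fosl1 (plus strand).
Egr1: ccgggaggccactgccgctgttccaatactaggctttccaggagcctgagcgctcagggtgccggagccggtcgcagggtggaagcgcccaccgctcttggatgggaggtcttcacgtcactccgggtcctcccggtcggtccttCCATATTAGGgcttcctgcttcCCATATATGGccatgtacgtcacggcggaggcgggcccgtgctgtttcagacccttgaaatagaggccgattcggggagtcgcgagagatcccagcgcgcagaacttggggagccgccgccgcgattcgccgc
Jund: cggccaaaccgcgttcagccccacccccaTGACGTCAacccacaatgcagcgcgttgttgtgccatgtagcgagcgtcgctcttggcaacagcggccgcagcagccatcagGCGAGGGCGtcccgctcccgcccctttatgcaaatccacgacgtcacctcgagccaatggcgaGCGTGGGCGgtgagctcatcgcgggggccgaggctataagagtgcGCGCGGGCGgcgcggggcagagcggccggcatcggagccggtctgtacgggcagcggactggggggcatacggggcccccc
Junb: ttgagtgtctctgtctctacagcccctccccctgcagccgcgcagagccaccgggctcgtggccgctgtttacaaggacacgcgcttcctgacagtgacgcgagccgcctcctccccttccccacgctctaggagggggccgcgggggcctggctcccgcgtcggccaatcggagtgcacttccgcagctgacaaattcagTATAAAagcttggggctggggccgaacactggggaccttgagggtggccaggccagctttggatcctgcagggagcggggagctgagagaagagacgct
Fosl1: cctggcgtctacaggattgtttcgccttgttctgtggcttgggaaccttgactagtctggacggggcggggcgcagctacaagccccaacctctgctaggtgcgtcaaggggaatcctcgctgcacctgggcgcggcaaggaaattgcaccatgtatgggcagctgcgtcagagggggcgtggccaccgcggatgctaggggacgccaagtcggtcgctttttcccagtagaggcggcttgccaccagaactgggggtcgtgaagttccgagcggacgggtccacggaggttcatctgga

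The Egr1 window held 2 CArG boxes, from -105 to -96 and from -83 to -74 relative to the gene start, a motif found in 1.64% of all 33469 RefSeq windows of this length. The Jund window held a CRE from -221 to -214, a motif in 1.83% of all windows, and 3 EGR sites, a motif in 4.98% of them. That window was 69.7% G and C, beside a median of 51.7% over all windows. The share of this G- and C-rich motif among windows of like content was not computed. Junb held a TATA box from -49 to -44, which 14.2% of all windows have, and none of these letters was found in the Fosl1 window. Fosl2 held 2 EGR sites and the unmeasured Ier2 a CRE. The AP-1 site in its broad form, which is in 7.33% of all windows, was in none of the 6. These matches describe letters within these windows and say nothing of binding in these cells.

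**Figure D2:**
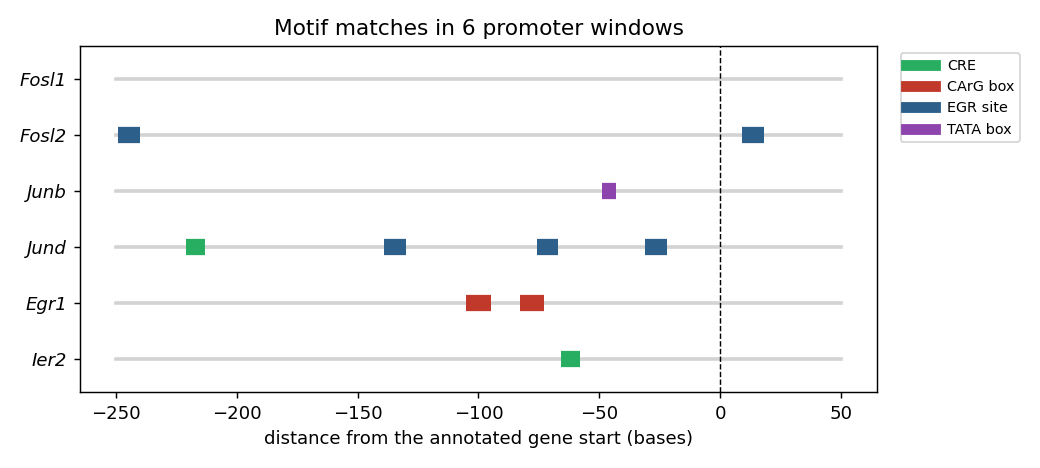
Motif matches in the promoter windows of 6 members, by distance in bases from the annotated gene start (dashed line). Coloured blocks are matches on either strand, with 2 CArG boxes in Egr1, 1 CRE and 3 EGR sites in Jund, and no match in Fosl1.

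Within the Fos family, Fos and Fosl1 went in opposite directions. Fos (ENSRNOG00000008015), the founding Fos protein and a partner for all Jun proteins, had 1573, 1727 and 1736 CPM in C6-AQP1 replicates 1 to 3 and 684, 686 and 713 CPM in C6 control replicates 1 to 3. The groups did not overlap, with replicate 1 the lowest of its group. The log2 fold change was 1.27 ± 0.04 (standard error, SE, edgeR adjusted p = 8.7e-07), or 2.42-fold. Fosl1 (ENSRNOG00000020552), which encodes FRA-1, a Fos protein that lacks a strong activation domain and is known from invasive tumour cells, had 43.3, 46.1 and 45.2 CPM in C6-AQP1 replicates and 68.5, 69.3 and 72.2 CPM in controls. All 3 C6-AQP1 libraries were below all controls. Its log2 fold change was -0.64 ± 0.04 (SE, edgeR adjusted p = 3.4e-13), a level 1.56-fold lower. Tested against a change of 1.5-fold rather than against no change, this fall was not called (adjusted p = 0.0824 from edgeR's glmTreat, with 6.7e-39 to 0.0824 over all alternatives).

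Fosl2 (ENSRNOG00000052357), which encodes FRA-2, was near the limit of detection. It had 11, 26 and 27 counts in C6-AQP1 replicates and 13, 23 and 18 in C6 control replicates, or 0.563, 0.630 and 0.638 CPM against 0.583, 0.445 and 0.352 CPM. The groups overlapped through control replicate 1. The log2 fold change of 0.50 had a 95% interval from -0.15 to 1.14 (adjusted p = 0.142 from edgeR), so a difference was not detectable at this depth and a 2-fold rise lies within the interval.

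The ratio of Fos to Fosl1 within a library does not depend on scaling between libraries. As log2 of the ratio of counts, it was 5.18, 5.23 and 5.26 in C6-AQP1 replicates and 3.32, 3.31 and 3.30 in controls. The ratio was thus 3.77-fold higher in C6-AQP1 cells, with no overlap between groups (p = 0.10 from a two-sided exact permutation test, the smallest that 3 libraries against 3 can give, and 0.10 after adjustment over the 6 pairs of paralogs compared). The ratios that involve Fosl2 rest on its few counts: Fos to Fosl2 differed by 0.84 and Fosl1 to Fosl2 by -1.08 on the log2 scale, with a standard deviation of about 0.40 between control libraries for the former.

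Among the Jun genes, Jun rose more than its paralogs. Jun (ENSRNOG00000026293), the strongest activator of the family, had 1380, 1461 and 1510 CPM in C6-AQP1 replicates and 394, 391 and 400 CPM in controls. The groups lay far apart, and the control libraries differed from each other by only a few CPM. Its log2 fold change was 1.88 ± 0.03 (SE, edgeR adjusted p = 2.8e-14), or 3.68-fold.

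Junb (ENSRNOG00000042838), a weaker activator that can restrain Jun, had 712, 752 and 812 CPM in C6-AQP1 replicates and 413, 415 and 438 CPM in controls. Its C6-AQP1 libraries were spread more widely than its controls but did not overlap them. The log2 fold change was 0.85 ± 0.06 (SE, edgeR adjusted p = 1.0e-04), or 1.80-fold, under the 2-fold threshold. Jund (ENSRNOG00000019568), the Jun gene that is expressed steadily in many resting cells, had 222, 260 and 277 CPM in C6-AQP1 replicates and 153, 161 and 171 CPM in controls. Replicate 1 was the lowest of both groups for this gene, and the groups did not overlap. Its log2 fold change of 0.65 ± 0.10 (SE, 95% interval 0.37 to 0.92, edgeR adjusted p = 0.00348) was the least precise among the members that passed. Tested against a 1.5-fold change it was not called (adjusted p = 0.358 from glmTreat, with 2.4e-16 to 0.358 over all alternatives).

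**Figure D3:**
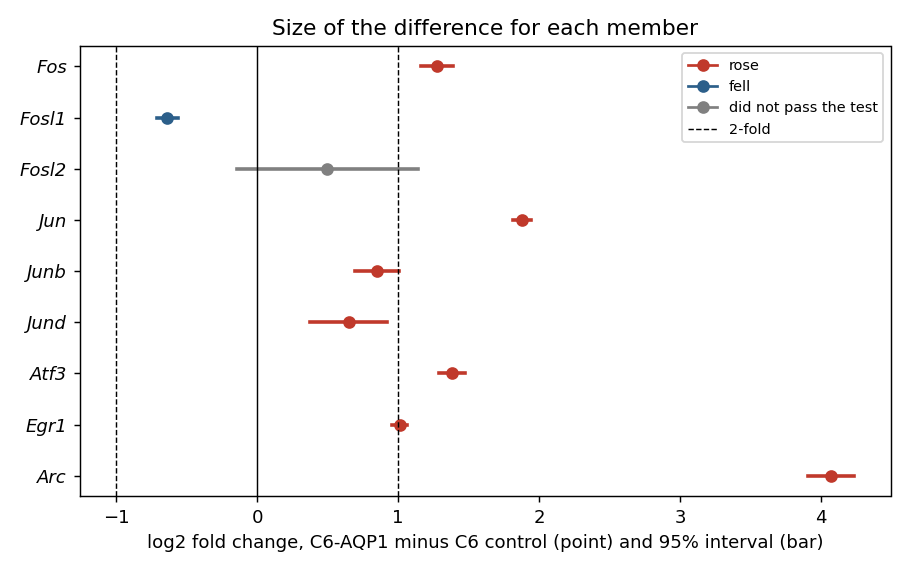
Log2 fold change of each member between C6-AQP1 and C6 control libraries, with its 95% interval from edgeR. Dashed lines mark a 2-fold difference. Arc lies at 4.07, Egr1 sits on the 2-fold line, Fosl1 is below 0, and the interval of Fosl2 spans 0.

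Within each library, Jun gained on both paralogs. The log2 ratio of Jun to Junb was 0.96, 0.96 and 0.89 in C6-AQP1 replicates and -0.07, -0.09 and -0.13 in controls, a ratio 2.05-fold higher in C6-AQP1 cells. Jun to Jund had log2 ratios of 2.64, 2.49 and 2.45 against 1.36, 1.28 and 1.22, a ratio 2.36-fold higher. Junb to Jund changed least, by 1.15-fold, from 1.43, 1.37 and 1.36 in controls to 1.68, 1.53 and 1.55 in C6-AQP1 replicates. Groups did not overlap for any of these 3 ratios (p = 0.10 for each in the exact permutation test, its smallest value, and 0.10 after adjustment over 6 pairs).

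Jun, Junb and Jund are genes without introns, so the gene lengths in RefSeq GRCr8 (3094, 1785 and 1679 bases) can stand for transcript lengths, although the authors' annotation may have used others. Per kilobase, Junb had the highest level of the Jun genes in C6 control cells, with 237 ± 7.82 CPM per kilobase, followed by Jun with 128 ± 1.46 and Jund with 96.3 ± 5.43 (SD, n = 3). In C6-AQP1 cells the level of Jun was 469 ± 21.2 CPM per kilobase, that of Junb 425 ± 28.4 and that of Jund 151 ± 16.7 (SD, n = 3). The ranges of Jun, 446 to 488, and Junb, 399 to 455, overlapped between C6-AQP1 libraries, but Jun was the higher of both within each library. As a share of the summed level of the Jun genes per kilobase, Jun went from 27.7% ± 0.596 to 44.9% ± 0.814, Junb from 51.4% ± 0.213 to 40.7% ± 0.450 and Jund from 20.9% ± 0.593 to 14.4% ± 0.741 (SD, n = 3). None of these shares overlapped between the groups.

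**Figure D4:**
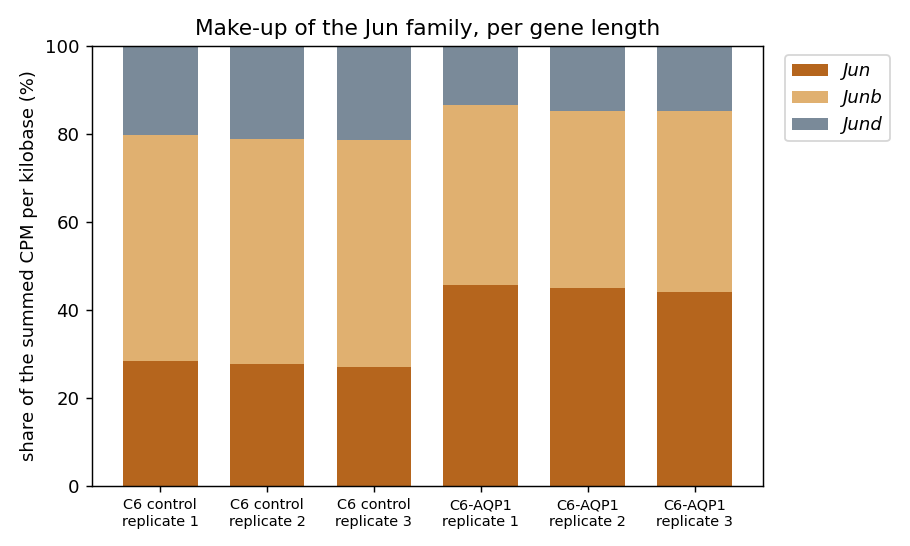
Share of Jun, Junb and Jund in their summed level per kilobase of gene length (CPM per kilobase), in % for each of the 6 libraries. Jun takes 27.1% to 28.3% in C6 control and 44.0% to 45.6% in C6-AQP1 libraries.

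Atf3 (ENSRNOG00000003745), a stress-induced factor that dimerizes with Jun proteins and can repress their targets, had 56.0, 54.8 and 57.5 CPM in C6-AQP1 replicates and 23.2, 21.0 and 21.0 CPM in controls. The libraries of each group lay close together, and replicate 1 was the highest of the controls. The log2 fold change was 1.38 ± 0.04 (SE, edgeR adjusted p = 1.6e-17), or 2.61-fold.

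Egr1 (ENSRNOG00000019422), a zinc finger factor induced through serum response factor, had 1442, 1557 and 1541 CPM in C6-AQP1 replicates and 748, 749 and 756 CPM in controls. The control libraries lay close together, while C6-AQP1 replicate 1 was below the others. The log2 fold change of 1.01 ± 0.02 (SE, 95% interval 0.96 to 1.06, edgeR adjusted p = 3.8e-15) lay on the 2-fold threshold. Egr1 was no longer a DEG without C6-AQP1 replicate 2 or without C6-AQP1 replicate 3, where its log2 fold change was 0.99 and 0.998, and the DEGs among the members then numbered 4.

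Arc (ENSRNOG00000043465), a cytoskeleton-associated protein of neuronal synapses whose mRNA is induced by neuronal activity, had the largest log2 fold change of the members. It had 50.7, 57.6 and 60.6 CPM in C6-AQP1 replicates and 3.50, 3.19 and 3.50 CPM in controls, from 78 to 179 counts per control library. Its control level was therefore low but measured in every library. The log2 fold change was 4.07 ± 0.08 (SE, edgeR adjusted p = 2.3e-18), or 16.8-fold. Neuronal markers were higher in the same libraries: Syt1, Snap25 and Map2 rose, with log2 fold changes of 6.11, 2.87 and 1.63, while Tubb3 had 0.14 (adjusted p = 0.231 from edgeR). Syt1 and Snap25 rest on few control counts, namely 5, 5 and 9 for Syt1 and 4, 19 and 9 for Snap25 in replicates 1 to 3, so their size is imprecise. The study kept genes that passed an expression filter in either group, so both may have been kept only through C6-AQP1. Their rises may therefore not be independent of that filter. Whether the neuronal markers moved with Arc for a shared reason was not tested.

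The spread between C6-AQP1 libraries was uneven among these genes. Replicate 1, the shallowest C6-AQP1 library, was the lowest of its group for 8 of the 9 members, beside 42.8% of all genes. In the control group, replicate 1 was the lowest for 5 of 9, beside 37.3% of all genes. The coefficient of variation was larger in C6-AQP1 than in C6 control libraries for 7 of the 9 members, beside 57.3% of all genes with a value. Its median over the members was 5.44% in C6-AQP1 and 3.31% in C6 control libraries, and over all genes 3.88% and 3.36%. Among the members it was largest in C6-AQP1 for Jund, at 11.1%, and in C6 control for Fosl2, at 25.3%. Leaving replicate 1 out of both groups kept 7 rises, 1 fall and 5 DEGs among the members. Whether depth or handling moved these values was not tested.

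Among other bZIP factors (the family of basic leucine zipper proteins to which AP-1 belongs), 8 of the 11 measured of 14 listed rose, none fell, since all 11 log2 fold changes were above 0, and 3 (Atf2, Crem and Maff, named after their values were seen) had log2 fold changes of 0.07, 0.06 and 0.06 that did not pass the test. Over all genes 40.8% rose and 40.7% fell. Tested against a 1.5-fold change, 4 rises were called. The median log2 fold change of this list was 0.56. Fosb, which like Fos carries a strong activation domain, had 1130 ± 19.3 CPM in C6-AQP1 and 340 ± 6.66 CPM in C6 control cells (SD, n = 3). It differed by 1.73 ± 0.02 on the log2 scale (SE, edgeR adjusted p = 1.0e-24). Maf, a large Maf factor that can pair with Fos or Jun proteins, had a log2 fold change of 3.45, from a level of 0.439 CPM in controls. With so low a control level, Maf may have passed the study's expression filter only through C6-AQP1. Jdp2, a repressor that dimerizes with Jun, had 0.89.

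Other immediate early genes had rises and falls. Of 30 measured of 34 listed, 21 rose, 7 fell and 2 (Homer1 at -0.06 and Plk3 at 0.15 log2) did not pass, with a median log2 fold change of 0.60. Over all genes 40.8% rose and 40.7% fell. Counted as DEGs, 9 were higher and 1 lower, beside 9.74% and 4.35% of all genes. Tested against a 1.5-fold change, 13 rises and 1 fall were called. The zinc finger factors Egr2 and Egr3, relatives of Egr1, rose by 2.02 and 2.06 on the log2 scale (edgeR adjusted p = 1.2e-16 and 7.2e-19), values above that of Egr1. Btg2, which restrains proliferation, had 3.72, and Dusp1, a phosphatase that inactivates MAP kinases, had 3.20. The DEG with lower values was Nr4a3, an orphan nuclear receptor named here after its value was seen, at -1.49 (adjusted p = 2.6e-13 from edgeR).

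Genes upstream of the members were called, by adjusted p alone, at rates near those of all genes. Of 19 measured of 22 listed kinases, serum response factor and its partners, 7 rose and 7 fell, and 5 were not called. The median log2 fold change was 0.01. Over all genes 40.8% rose and 40.7% fell, so these counts are no result about this list. None was a DEG, beside 9.74% of all genes with higher and 4.35% with lower values, and the largest log2 fold change by size was -0.78. Map2k1 and Map2k2, the kinases that activate ERK, had log2 fold changes of -0.78 and -0.74, while Map2k7, which activates JNK, and Rps6ka5, a nuclear kinase downstream of ERK and p38, had 0.70 and 0.66 (all adjusted p under the threshold in edgeR). Among the transcripts that did not pass, Mapk3, Mapk7, Mapk14 and Elk1, named after their values were seen, had log2 fold changes from -0.32 for Mapk7 to 0.10 for Elk1. Transcript levels do not show the activity of these kinases. Scaled by library totals alone, 11 genes of this list rose, and tested against a 1.5-fold change 1 rose and 2 fell.

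Genes that restrain the early response had 7 rises and 7 falls among 14 measured of 16 listed, beside 40.8% and 40.7% of all genes, and a median log2 fold change of 0.01. Tested against a 1.5-fold change, 6 rises and 0 falls were called. By size, 4 were DEGs with higher values and none with lower values, beside 9.74% and 4.35% of all genes. The lowest log2 fold change in edgeR was -0.45. Dusp1, also in the list above, had 253 ± 12.0 CPM in C6-AQP1 and 27.5 ± 1.06 CPM in C6 control cells (SD, n = 3). Dusp5, a nuclear phosphatase for ERK, had a log2 fold change of 2.44. Zfp36 and Zfp36l1, which bind AU-rich elements and speed the decay of mRNAs such as that of Fos, had 1.83 and 1.74. Their paralog Zfp36l2, named after its value was seen, fell, with -0.45 (edgeR adjusted p = 2.4e-13).

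Genes known as AP-1 targets in other cells were also called, by adjusted p alone, at rates near those of all genes. Of 18 measured of 25 listed, 8 rose, 8 fell and 2, among them Il6 at 0.04 log2, did not pass, with a median log2 fold change of 0.01. Over all genes 40.8% rose and 40.7% fell, so these counts are no result about this list. The DEGs were 4 with higher and 3 with lower values, beside 9.74% and 4.35% of all genes, and tested against a 1.5-fold change 4 rose and 3 fell. Mmp9, a gelatinase, and Hmox1, heme oxygenase, rose by 2.73 and 1.54 on the log2 scale. In the other direction, Spp1, the secreted matrix protein osteopontin, had 2584 ± 57.0 CPM in control and 368 ± 6.52 CPM in C6-AQP1 libraries (SD, n = 3). Its log2 fold change was -2.81 ± 0.02 (SE, edgeR adjusted p = 1.3e-27), while that of Nqo1, a quinone reductase, was -1.57. The remaining DEG with lower values was Plaur, the urokinase receptor, at -1.35, named after its value was seen.

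**Figure D5:**
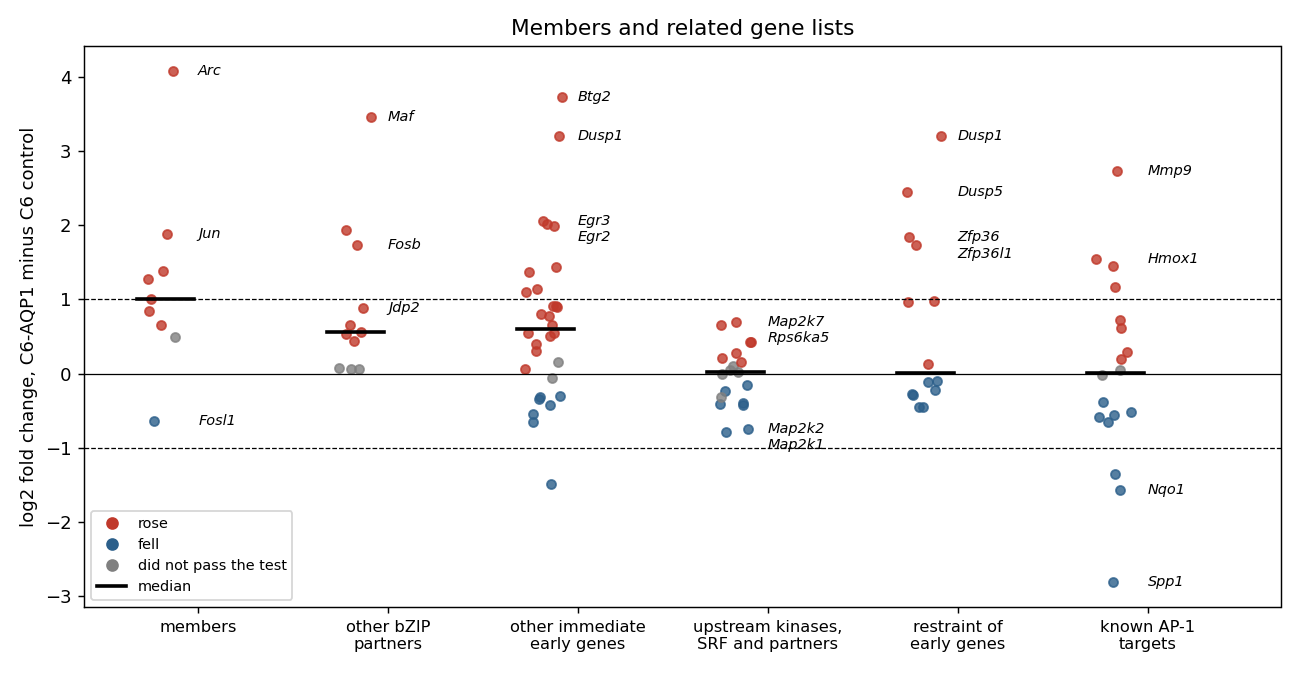
Log2 fold changes between C6-AQP1 and C6 control cells of the 9 members and of 5 related gene lists. Each point is a gene (red rose, blue fell, grey did not pass the test), black bars are list medians and dashed lines mark 2-fold. The medians are 1.01 for the members, 0.56 and 0.60 for the bZIP and early gene lists, and 0.01 for the other 3.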

How the data were processed

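RNA of 3 C6-AQP1 and 3 C6 control libraries had been amplified as cDNA before sequencing. According to the submitters' processing notes and the methods, the authors used FastQC (0.11.2), Trimmomatic (0.36), STAR (2.5.1b) on rn6 and RSEM (1.2.29). The authors deposited expected counts, estimates of reads per gene without normalization, for 12121 genes, which the study describes as filtered on mean TPM. By the methods, a gene passed if either group exceeded the cutoff. A gene low in controls, such as Maf, Mmp9, Syt1 or Snap25, may thus have been kept only through C6-AQP1. RSEM divides reads among similar genes, so paralogs may share some. The labels describe single reads and the methods paired-end reads.

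Expected counts were rounded, scaled with TMM factors and tested in edgeR 4.0.16 (R 4.3.3) by a robust quasi-likelihood fit of the groups over all 12121 genes, with Benjamini-Hochberg adjustment. A gene rose or fell at an adjusted p under 0.05, and a DEG also had an absolute log2 fold change above 1. Standard errors came from the fold change and its test statistic. Ratios within libraries were taken after adding 0.5 counts. DESeq2 1.42.0, limma-voom (3.58.1), glmTreat and other alternatives were run as well. The edgeR, DESeq2, limma-voom and glmTreat fits were also run on simulated data, in which far fewer genes changed than here. That run cannot show how scaling and false calls behave in these data. Replicates differed by more than counting noise (chi-square per degree of freedom 2.15 to 4.29), so none was taken for a library deposited more than once, which does not show that they are biological replicates. Sequences and the Jun gene lengths come from RefSeq (GRCr8), and the levels per kilobase were added after the counts had been seen. No source used here gives the gene annotation or says whether counting used strand.

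The members and gene lists were chosen with earlier results of these data known. Named besides the members were up to 4 genes of each list with the largest change among those that passed the test and reached 50 counts in each library of the group with the higher level. Some genes that meet this rule are not reported here.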

Additional observations from a re-analysis of the deposited data

How the results depend on the processing

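Under 16 alternatives (DESeq2 size factors, upper-quartile factors or library totals in edgeR, filterByExpr, DESeq2, limma-voom, glmTreat, the replicate number as a block, both replicates 1 left out, thinning to the smallest total, and each library left out in turn), every member kept its direction, and every call of a member held except those of Fosl1 and Jund with glmTreat, which tests against a 1.5-fold change. Egr1 alone crossed the 2-fold threshold, without C6-AQP1 replicate 2 or replicate 3. With glmTreat 0 members fell and 6 rose. In the lists it called 4 rises of bZIP factors, 13 rises and 1 fall of early genes, 1 rise and 2 falls of upstream genes, 6 rises and 0 falls of restraining genes and 4 rises and 3 falls of AP-1 targets, and over all genes 1879 rises and 1332 falls, fewer because small changes no longer count. Library totals gave 11 upstream rises, beside 5363 rises over all genes, and moved the median log2 fold change of all genes to 0.05.

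With the replicate block, 7 members rose and 1 fell, as without it. Same-numbered libraries deviated together with correlations of 0.126, -0.0124 and 0.0651, C6-AQP1 replicate 2 correlated best with control replicate 3 (0.106), and the numbers were not taken to pair the libraries. The ratios between paralogs kept their direction with 5 added counts and without any library. Fosl2 had the fewest counts of the members, 11 to 27 per library.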
